A study of Mus musculus with 6 samples.

Results

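Chaperones of the heat shock protein (Hsp), chaperonin (Cct) and J-domain (Dnaj) families were followed in myeloerythroid progenitors of mouse bone marrow. Members were the genes whose symbol begins with Hsp90, or with Hspa, Hspb, Hspd, Hspe, Hsph, Dnaja, Dnajb, Dnajc or Cct followed by a digit, measured by a probe set annotated to that gene alone. Hspa5 and Dnajb9 were left out by that choice. It gave 77 genes of the 18193 with such a probe set, and 191 probe sets of the 45037 tested. By family these were 10 Hsp70, 3 Hsp110 and 2 Hsp90 genes, and 2 of the mitochondrial Hsp60 and Hsp10 chaperonin. The others were 9 Cct genes, 8 with Hspb symbols (small heat shock proteins by name), and 4 Dnaja, 12 Dnajb and 27 Dnajc genes. Hsp90ab1 and Dnajc19, which have no probe set of their own alone in the annotation used, were not analysed here.

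All 6 arrays came from male mice aged 6 weeks that carried the Hes1 GFP/WT genotype, in which green fluorescent protein (GFP) reports on Hes1, a repressor induced by Notch signalling. Marrow cells without lineage markers, with c-Kit and without Sca-1 were sorted into GFP-negative cells (3 arrays) and GFP-positive cells (3 arrays). Both groups carried the reporter allele, so neither is a wild-type control. From each sample 5 ng of total RNA was amplified and hybridised to an Affymetrix array. The labels do not say whether replicates came from separate animals, so each p-value measures only the spread between these samples.

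A chaperone binds a protein that is not yet folded, or has lost its fold, and keeps it from clumping. Hsp70 proteins do this in cycles of ATP binding, J-domain proteins deliver the client and trigger ATP hydrolysis, and Hsp110 proteins release the spent nucleotide. Hsp90 finishes the maturation of kinases and receptors, chaperonins fold proteins inside a closed barrel, and small heat shock proteins hold clients without using ATP. In red cell precursors Hsp70 is known for shielding the transcription factor GATA1 from caspase cleavage, and the heat shock factor HSF1 raises many of these genes under stress.

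Signal is given as the log2 of the deposited intensity, and a change as GFP-positive minus GFP-negative on that scale. A gene is represented by its brightest probe set. A gene is called where the adjusted p of limma's moderated test (Benjamini-Hochberg over all probe sets) was under 0.05. Levels of different probe sets are not compared, since probes differ in brightness.

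Array medians ran from 59.9 to 64.8 intensity units. Hes1 rose 2.40-fold, from 5.88 ± 0.14 to 7.15 ± 0.04 (SD, n = 3 each, limma adjusted p = 0.00141). Of the progenitor markers measured, Kit was at 11.42 ± 0.11 and 11.17 ± 0.06. Ly6a, which encodes Sca-1, was not analysed here. Markers of some other cells moved with the groups. All 7 monocyte markers fell, their summed intensity being 29076 to 30192 in GFP-negative and 5735 to 9211 in GFP-positive arrays. Of 9 erythroid markers 6 rose and 0 fell (39866 to 40784 against 55805 to 60462). Of 6 T and NK cell markers 1 fell, Nkg7 (12.83 ± 0.05 to 11.67 ± 0.39), which carries most of their sum (7200 to 7684 against 2621 to 4063). The other 5 were not called, and 3 of the 6 changes lay above 0. Of 7 neutrophil markers 0 were called, and their sums overlapped (2930 to 7501 against 6419 to 18168). Of 9 B and plasma cell markers 2 fell (2743 to 4671 against 1076 to 3869), and of 7 markers of stroma and endothelium 1 fell (456 to 550 against 360 to 526). Of 6 progenitor markers 3 fell (33239 to 37132 against 26288 to 27753). Of 13 immediate early genes 3 fell (9767 to 17667 against 5088 to 8166). Immunoglobulin kappa signal stood high in 2 arrays, GFP-negative 3 (9.99) and GFP-positive 1 (11.14), against 5.07 to 7.61 in the other 4. The part of these markers in the chaperone values was not tested. Lower signal cannot be told apart between fewer cells of a type and less RNA per cell.

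GFP-positive progenitors had higher signal for 8 chaperone genes and lower signal for 2, and 67 of the 77 were not called. The genes that rose were Dnajb3, Dnaja4, Hspb6, Hspa4l, Dnajb2, Dnajc11, Dnajb4 and Dnajc25. Those that fell were Dnajc28 and Hspa13. In RefSeq (GRCm38.p6) Dnajb2 and Dnajb3 lie on chromosome 1, Dnajb4 and Hspa4l on 3, Dnajc11 and Dnajc25 on 4, Hspb6 on 7, Dnaja4 on 9, and Dnajc28 and Hspa13 on 16. The 8 make up 10.4% of the chaperones, against 8.15% of all genes called higher. The 2 make up 2.6%, against 9.92% of all genes called lower. In either direction 13% of the chaperones were called, against 18.1% of all genes. Most changes were small: 47 of the 77 genes (61%) moved by under 0.25, against 51% of all genes, and 2 genes (2.6%) moved by 1 or more, against 8.96%. The median change was 0.15, against 0.11 over all genes, and 60 of the 77 changes (77.9%) lay above 0, against 64.6%. In 32 chaperones every GFP-positive array lay above every GFP-negative one (41.6%, against 28.9% of all genes), in 5 every one lay below (6.49%, against 16.7%), and in 40 the groups overlapped; in either direction 48.1% were apart, against 45.6% of all genes. With each array's median subtracted, 16 chaperones were called higher and 0 lower, and over all genes the calls went from 1482 to 2657 higher and from 1805 to 1712 lower. Without the 2 arrays of high immunoglobulin signal, 3 were called higher (Dnajb3, Dnaja4 and Hspb6) and 0 lower. Over all genes that fit, with fewer arrays, called 379 higher and 929 lower, against 1482 and 1805 with all arrays.

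**Figure D1:**
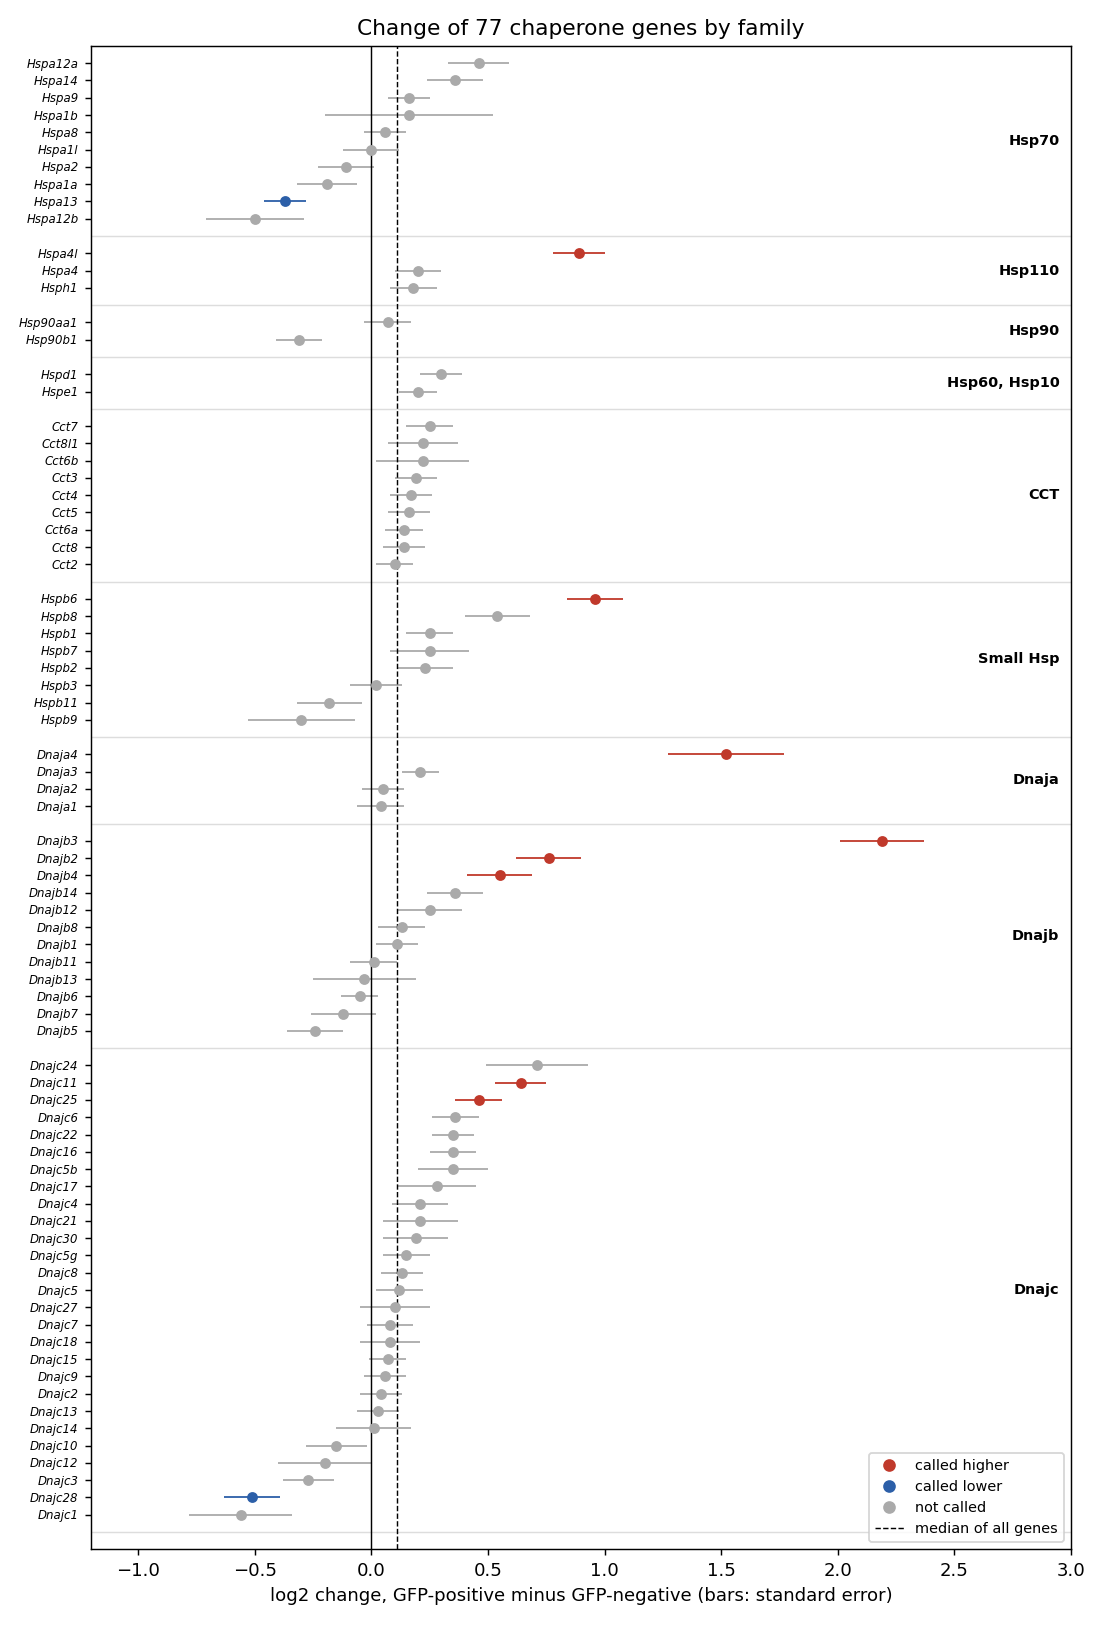
Log2 change of each of the 77 chaperone genes, GFP-positive minus GFP-negative, with its standard error, arranged by family, and the median of all genes (0.11) as a dashed line. Most points lie near that line, Dnajb3 (2.19) and Dnaja4 (1.52) stand farthest to the right, and all 9 Cct genes lie above 0.

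Heat shock elements, the binding sites of HSF1, are built from units of GAA and TTC, so the promoter windows of the members were searched for them. The windows run from 250 bases before to 50 after each start in RefSeq (GRCm38.p6), and 63 of the 77 genes, among them 8 of the 10 called, have one. An element of 3 units in alternating orientation was present in 4 members, Dnajb6, Hspd1, Hspe1 and Hsph1, which is 6.35% of members with a window and compares with 0.662% of all 27025 genes. None of the 8 called members held it. The shorter form of 2 units (GAANNTTC or TTCNNGAA), which every longer element contains, was present in 20 members (31.7%, against 17% of all genes), 3 of them called: Dnaja4, Dnajb4 and Hspb6. The CCAAT box (CCAAT or ATTGG) was in 26 members (41.3%, against 41.1%). The erythroid GATA motif (AGATAA or TTATCT) was in 3 members (4.76%, against 12.7%), Dnajb2, Dnajb7 and Hspb9. A match is a description of letters, not of binding.

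The 250 bases before the start of 3 members are printed from RefSeq (GRCm38.p6): Hspe1 for its 2 overlapping elements of 3 units, Dnajb3 for its largest change, and Hspa4l as the called Hsp110 gene. Capitals mark heat shock elements, and the Dnajb3 and Hspa4l stretches have none.
Hspe1, chr1:55087898-55088147, plus strand: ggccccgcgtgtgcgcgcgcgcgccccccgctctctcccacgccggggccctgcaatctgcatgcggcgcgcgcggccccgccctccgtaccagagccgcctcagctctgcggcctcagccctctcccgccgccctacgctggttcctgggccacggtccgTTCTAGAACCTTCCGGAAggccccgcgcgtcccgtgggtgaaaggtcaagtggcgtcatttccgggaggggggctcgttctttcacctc
Dnajb3, chr1:88205749-88205998, minus strand: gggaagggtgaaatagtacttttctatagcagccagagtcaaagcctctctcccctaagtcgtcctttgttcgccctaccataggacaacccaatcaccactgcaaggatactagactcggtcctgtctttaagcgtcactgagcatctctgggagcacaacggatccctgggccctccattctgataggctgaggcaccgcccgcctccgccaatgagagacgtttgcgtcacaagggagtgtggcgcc
Hspa4l, chr3:40745363-40745612, plus strand: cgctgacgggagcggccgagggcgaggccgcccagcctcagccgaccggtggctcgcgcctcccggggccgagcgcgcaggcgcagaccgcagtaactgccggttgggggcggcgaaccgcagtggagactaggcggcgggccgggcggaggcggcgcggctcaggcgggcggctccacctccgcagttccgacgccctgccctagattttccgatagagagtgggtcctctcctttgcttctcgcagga
Hspe1 and Hspd1 are neighbours transcribed in opposite directions, and the capitals in the Hspe1 stretch also lie in a window of Hspd1. For the 3 called genes with the shorter form, and for Cct2, the 30 bases around each match are printed, with the element in capitals.
Dnaja4, chr9:54699458-54699487, plus strand: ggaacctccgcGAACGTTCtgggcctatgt
Dnaja4, chr9:54699496-54699525, plus strand: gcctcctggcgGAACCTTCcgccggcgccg
Dnajb4, chr3:152193841-152193870, minus strand: ttcgttcgctgTTCTAGAAagtacagagac
Hspb6, chr7:30553170-30553199, plus strand: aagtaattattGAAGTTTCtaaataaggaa
Cct2, chr10:117063399-117063428, minus strand: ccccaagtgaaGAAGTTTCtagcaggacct
Each of these genes has 2 windows, and the 250 bases before the start listed first hold 0 such elements. The matches lie before the other start, by 90 and 52 bases in Dnaja4, 14 in Dnajb4, 120 in Hspb6 and 42 in Cct2.

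Among the Hsp70 genes, 0 rose and 1 of 10 fell (10%, against 9.92% of all genes). No family was tested as a set. Hspa13, an Hsp70 relative of the endoplasmic reticulum that lacks the substrate-binding domain of its kin, had 11.25, 11.38 and 11.36 in GFP-negative arrays and 10.93, 10.97 and 10.96 in GFP-positive arrays. Every GFP-positive array was below every GFP-negative one. It fell by 0.37 ± 0.09 (SE), a 1.29-fold difference (limma adjusted p = 0.0373), and 2 of its 4 probe sets were called lower. With any 1 array left out its adjusted p was 0.0511 to 0.123, and it was 0.193 without both arrays of high immunoglobulin signal.

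The best known Hsp70 genes were not called. Hspa8, the constitutive cytosolic Hsc70 that also strips clathrin from vesicles, read 13.77, 13.88 and 13.83 against 13.81, 13.94 and 13.90, with a change of 0.06 ± 0.09 (SE). Its groups overlapped. Hspa9, or mortalin, which pulls proteins into mitochondria, differed by 0.16 ± 0.09. Hspa1b, the classical heat-inducible gene, read 9.20, 9.41 and 10.35 against 9.43, 9.66 and 10.35. The third array of each group was its highest, and the change of 0.16 ± 0.36 is smaller than the SD within groups (0.61 and 0.48). Hspa1a is nearly identical to Hspa1b, so their signals are uncertain as separate values; the probe set annotated to Hspa1a read 3.45 to 3.92 over the 6 arrays. Hspa14, which works with the J-protein of the ribosome, was 0.36 ± 0.12 higher (limma adjusted p = 0.0892), with groups that did not overlap. The others of its 3 probe sets gave 0.13 and -0.09, both with overlap. Hspa12a and Hspa12b, distant relatives of the family, differed by 0.46 ± 0.13 and -0.50 ± 0.21 with limma adjusted p values of 0.0631 and 0.172. Their means went from 4.98 to 5.44 and from 5.92 to 5.42, under the medians of the arrays of each group. With no detection calls used, neither gene was shown to be above background. Hspa2 and Hspa1l, known mainly from testis, had changes of -0.11 ± 0.12 and -0.00 ± 0.12. The family's median change was 0.03. Over the alternative settings it ran from -0.06 (probe set of highest variance) to 0.11 (brighter probe sets only), with -0.02 for quantile normalization repeated.

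Of the 43 J-domain genes, 6 rose (14%, against 8.15% of all genes) and 1 fell (2.33%, against 9.92%). In either direction 16.3% were called, near the 18.1% of all genes, and the median change was 0.12, against 0.11.

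Dnajb3, a J-protein best known from testis, had the largest change of the 77 genes. It read 4.68, 4.11 and 4.39 in GFP-negative arrays and 6.57, 6.79 and 6.36 in GFP-positive arrays, so the groups were far apart. The GFP-negative values lie below the median of their arrays (5.99 to 6.02), and with no detection calls used the gene was not shown to be above background there, so the fold is that of the measured values only. The mean went from 4.39 ± 0.28 to 6.58 ± 0.22 (SD, n = 3 each), a rise of 2.19 ± 0.18 (SE) or 4.55-fold (limma adjusted p = 0.00145). With 1 array left out the adjusted p stayed at or under 0.00947, and it was 0.0323 without both arrays of high immunoglobulin signal. In RefSeq Dnajb3 lies on chromosome 1 within the spans of 8 Ugt1a genes, which encode enzymes that add glucuronic acid to bilirubin and drugs. The 3 probe sets shared by Ugt1a genes went the other way, by -2.09, -2.18 and -1.98 (limma adjusted p = 0.00206, 0.000936 and 0.00254).

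Dnaja4, a farnesylated partner of Hsp70 and a relative of Dnaja1, read 8.81, 8.61 and 9.40 against 10.22, 10.82 and 10.34. The lowest GFP-positive array exceeded the highest GFP-negative one. The rise was 1.52 ± 0.25 (SE), 2.87-fold (limma adjusted p = 0.0118), and all 3 of its probe sets were called higher, by 1.52, 1.34 and 0.87. Its call held with each array left out (adjusted p at most 0.0409) and without both arrays of high immunoglobulin signal (0.0288). In RefSeq the gene overlaps Mir5710. The other Dnaja genes were not called: Dnaja1 and Dnaja2, the main cytosolic J-proteins of this class, differed by 0.04 ± 0.10 and 0.05 ± 0.09, and the mitochondrial Dnaja3 by 0.21 ± 0.08, with groups apart.

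Of 12 Dnajb genes 3 rose (25%, against 8.15% of all genes) and 0 fell (against 9.92%). Besides Dnajb3 these were Dnajb2 and Dnajb4. Dnajb2, which carries ubiquitin-interacting motifs and passes clients to the proteasome, read 8.77, 8.51 and 8.77 against 9.32, 9.69 and 9.32. It rose by 0.76 ± 0.14 (SE), 1.69-fold (limma adjusted p = 0.0192), with no overlap. Its call was lost without GFP-negative 2 (0.0661) or GFP-negative 3 (0.055), and it was 0.0913 without both arrays of high immunoglobulin signal. Dnajb4, a cytosolic relative of the heat-inducible Dnajb1, read 9.44, 9.0 and 9.14 against 9.84, 9.65 and 9.74. Its rise was 0.55 ± 0.14 (SE), 1.46-fold (limma adjusted p = 0.0457). That call rests on 1 of 3 probe sets, the others giving 0.46 and, at dim means of 3.18 and 3.17, -0.02. Of the 6 fits with 1 array left out it held only without GFP-negative 1 (0.025, the others up to 0.137). It was 0.235 without both arrays of high immunoglobulin signal. In RefSeq Dnajb4 overlaps Fubp1 and Gm40180.

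The best known Dnajb genes were not called. Dnajb1, the Hsp40 induced by heat, differed by 0.11 ± 0.09 and Dnajb6, which suppresses aggregation of glutamine-rich proteins, by -0.05 ± 0.08. Dnajb12 and Dnajb14, which sit in the membrane of the endoplasmic reticulum, differed by 0.25 ± 0.14 and 0.36 ± 0.12. Dnajb11, which works inside that compartment with Hspa5, differed by 0.01 ± 0.10. Dnajb5 gave discordant values: its brightest probe set differed by -0.24 ± 0.12 and another by -2.33 ± 0.68 (limma adjusted p = 0.0725). Dnajb7, Dnajb8 and Dnajb13, known mainly from testis, read 3.25 to 3.74, 4.21 to 4.54 and 5.40 to 6.03 over the 6 arrays and were not called.

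Of 27 Dnajc genes 2 rose (7.41%, against 8.15% of all genes) and 1 fell (3.7%, against 9.92%). Dnajc11, part of the complex that shapes mitochondrial cristae, read 10.05, 9.98 and 10.22 against 10.80, 10.63 and 10.75. The groups did not overlap, and the rise was 0.64 ± 0.11 (SE), 1.56-fold (limma adjusted p = 0.012). It was called in 1 of 4 probe sets, and another gave 0.24 with groups apart (9.61 to 9.85). The others gave -0.08 and -0.04 at means under the array medians (4.55 to 4.46 and 3.26 to 3.22). With no detection calls used, these were not shown to be above background. The probe set of highest variance was the one at -0.08 (limma adjusted p = 0.88). The call held with each array left out (adjusted p at most 0.0488) but not without both arrays of high immunoglobulin signal (0.0616).

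Dnajc25, a membrane J-protein of the endoplasmic reticulum, read 10.70, 10.57 and 10.57 against 11.01, 11.16 and 11.06. It rose by 0.46 ± 0.10 (SE), 1.38-fold (limma adjusted p = 0.025), with no overlap. Its call held without GFP-negative 1 (0.0385) or GFP-positive 1 (0.0414) and was lost without any of the other 4 arrays (up to 0.0928), and it was 0.125 without both arrays of high immunoglobulin signal. Dnajc28, a poorly studied J-protein assigned to mitochondria, read 9.06, 8.87 and 9.03 against 8.34, 8.67 and 8.42. All GFP-positive arrays were lower. It fell by 0.51 ± 0.12 (SE), 1.42-fold (limma adjusted p = 0.042), in 1 of 2 probe sets. With 1 array left out it was called only without GFP-positive 2 (0.0393, the others up to 0.129), and it was 0.217 without both arrays of high immunoglobulin signal.

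Several Dnajc genes lay close to the threshold without passing it. Dnajc24, needed for the diphthamide modification of elongation factor 2, differed by 0.71 ± 0.22 (limma adjusted p = 0.0791), and its other probe set was called higher by 0.69. Dnajc6, or auxilin, which recruits Hsc70 to clathrin coats, read 11.43, 11.61 and 11.45 against 11.78, 11.92 and 11.88, a difference of 0.36 ± 0.10 (limma adjusted p = 0.0578). Dnajc22 and Dnajc16, both membrane J-proteins, each differed by 0.35, with adjusted p values of 0.057 and 0.0668. At the low end Dnajc1, a J-protein of the endoplasmic reticulum membrane, differed by -0.56 ± 0.22 (limma adjusted p = 0.146), with all 6 of its probe sets below 0 and 1 called lower (-0.72). Dnajc3, the inhibitor of the eIF2alpha kinases, differed by -0.27 ± 0.11, with groups apart. The list of clathrin and vesicle J-proteins (Dnajc5, Dnajc6, Dnajc13 and Gak, the last being no member) had 0 of 4 genes called and a median of 0.15.

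Other J-proteins have a set task in the cell. Dnajc2, which sits on the ribosome, differed by 0.04 ± 0.09, and Dnajc21, which serves ribosome assembly, by 0.21 ± 0.16. Dnajc8, a spliceosome protein, differed by 0.13 ± 0.09 with groups apart. Dnajc9, a histone chaperone, differed by 0.06 ± 0.09, and Dnajc7, which binds both Hsp70 and Hsp90, by 0.08 ± 0.10. Dnajc5, the cysteine string protein of secretory vesicles, differed by 0.12 ± 0.10, and Dnajc13, an endosome protein, by 0.03 ± 0.09. Dnajc15, of the mitochondrial import machinery, differed by 0.07 ± 0.08, and Dnajc10, a disulfide reductase of the endoplasmic reticulum, by -0.15 ± 0.13. None of these 9 genes was called by its brightest probe set.

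**Figure D2:**
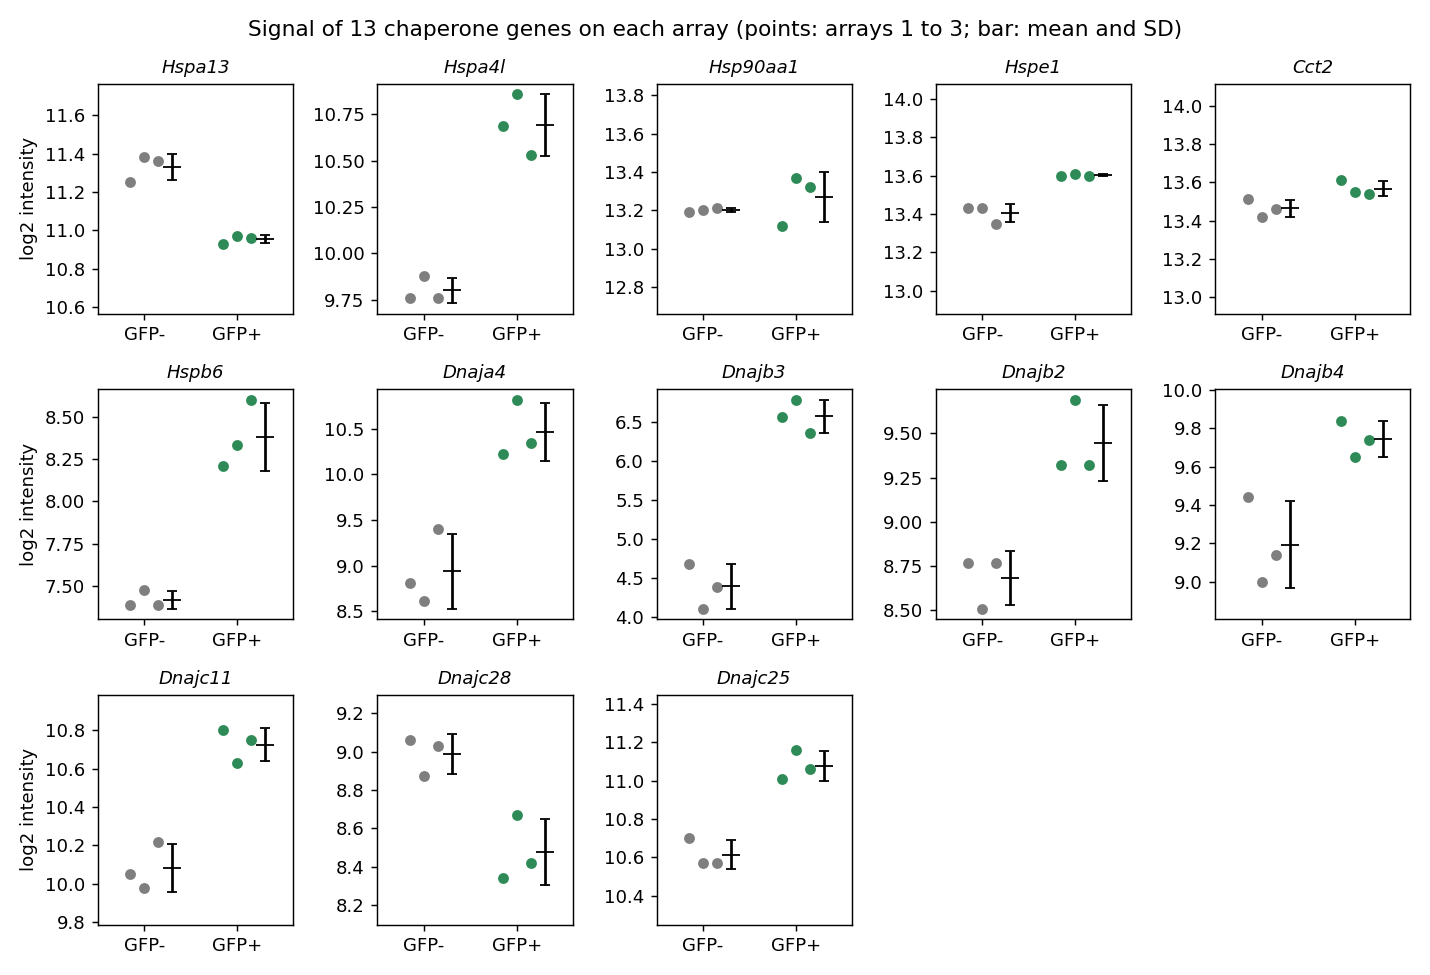
Log2 intensity of 13 chaperone genes on each of the 3 GFP-negative and 3 GFP-positive arrays, with group mean and SD; the scale differs between panels. In the 10 called genes the groups do not overlap, and neither do they in Hspe1 and Cct2, which were not called. Groups are apart in 45.6% of all genes. Hsp90aa1, also not called, has a GFP-positive array (13.12) below all GFP-negative ones (13.19 to 13.21).

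The Hsp110 genes, the exchange factors of Hsp70, had 1 call of 3 (33.3%, against 18.1% of all genes in either direction). Hspa4l, also named Osp94 for its response to osmotic stress, read 9.76, 9.88 and 9.76 against 10.69, 10.86 and 10.53. The groups were well apart, and the rise was 0.89 ± 0.11 (SE), 1.86-fold (limma adjusted p = 0.00514). All 5 of its probe sets were higher, by 0.47 to 1.17, and 2 were called. The call held with each array left out (adjusted p at most 0.0267) but not without both arrays of high immunoglobulin signal (0.067). Hspa4, its broadly expressed relative, differed by 0.20 ± 0.10 with overlap. The others of the 4 Hspa4 probe sets went the other way, by -0.03, -0.16 and -0.09, and none was called. Hsph1, the heat-inducible Hsp110, differed by 0.18 ± 0.10 with groups apart, and its other probe set was called higher by 0.83.

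Neither Hsp90 gene was called. Hsp90aa1, the inducible cytosolic form, read 13.19, 13.20 and 13.21 against 13.12, 13.37 and 13.32. The groups overlapped, and the difference was 0.07 ± 0.10 (SE, limma adjusted p = 0.656). Of its 5 probe sets 1 was called higher, by 0.51, at means of 5.37 and 5.89, under the array medians. Hsp90b1, or Grp94, the Hsp90 of the endoplasmic reticulum, read 12.30, 12.34 and 12.13 against 11.88, 11.99 and 11.97. All GFP-positive arrays were lower, and the difference was -0.31 ± 0.10 (limma adjusted p = 0.092).

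The mitochondrial chaperonin is a barrel of Hsp60 (Hspd1) with a lid of Hsp10 (Hspe1). Hspe1 read 13.43, 13.43 and 13.35 against 13.60, 13.61 and 13.60. No GFP-positive array overlapped the other group, but the difference of 0.20 ± 0.08 (SE) was not called (limma adjusted p = 0.156). Hspd1 read 12.81, 12.70 and 12.70 against 13.02, 13.07 and 13.03, a difference of 0.30 ± 0.09 (limma adjusted p = 0.0666), also with groups apart.

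The Cct genes encode the ring that folds actin and tubulin, and all 9 changes lay above 0, from 0.10 to 0.25, with 0 called. In Cct2, Cct3, Cct4, Cct5, Cct6a, Cct7 and Cct8, the 7 ring subunits here, every GFP-positive array lay above every GFP-negative one, as in 28.9% of all genes, with adjusted p values of 0.155 to 0.442. Cct2, which stands for the family here, read 13.51, 13.42 and 13.46 against 13.61, 13.55 and 13.54, a difference of 0.10 ± 0.08 (SE, limma adjusted p = 0.442). Cct7 had the largest difference, 0.25 ± 0.10. Tcp1, the remaining ring subunit, falls outside the symbols used and differed by 0.12 ± 0.09 with overlap. Cct6b and Cct8l1, forms known from testis, read 4.18 to 4.87 and 4.29 to 4.81 over the 6 arrays, and their groups overlapped. For comparison, all genes had a median change of 0.11 and the ring subunits 0.16.

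Of 8 small heat shock protein genes 1 rose (against 8.15% of all genes) and 0 fell (against 9.92%). Hspb6, or Hsp20, known from muscle, read 7.39, 7.48 and 7.39 against 8.21, 8.33 and 8.60. The GFP-negative arrays lay within 0.1 of each other and all GFP-positive arrays were higher. The rise was 0.96 ± 0.12 (SE), 1.95-fold (limma adjusted p = 0.00529). Its call held with each array left out (adjusted p at most 0.027) and without both arrays of high immunoglobulin signal (0.0417). In RefSeq the gene overlaps Lin37 and Gm38670. Hspb8, which works with Bag3 in selective autophagy, differed by 0.54 ± 0.14 (limma adjusted p = 0.0553), with groups apart. Its means went from 5.61 to 6.14, and the GFP-negative mean lies under the array medians. Hspb1, or Hsp25, read 5.02 to 5.09 against 5.18 to 5.43, a difference of 0.25 ± 0.10. The other 5 were not called, with changes from -0.30 for Hspb9 to 0.25 for Hspb7.

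Probe sets of the same gene often gave different sizes of change. Of the 191 chaperone probe sets 17 were called higher and 4 lower, against 6.35% and 7.66% of all probe sets. In 7 genes the brightest probe set was not called while another was: Cct4 (0.62), Hsp90aa1 (0.51), Hsph1 (0.83), Dnajc5 (0.57), Dnajc18 (0.52) and Dnajc24 (0.69) were higher and Dnajc1 (-0.72) was lower by that probe set. With the mean of all probe sets of a gene in place of the brightest, 18 chaperone genes were called higher and 4 lower, and over all genes the calls went from 1482 to 2372 higher and from 1805 to 2072 lower. Those 18 included Hspd1, Hspe1, Hsph1, Cct4, Cct7 and Hsp90aa1, and Hsp90b1 was among the 4.

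**Figure D3:**
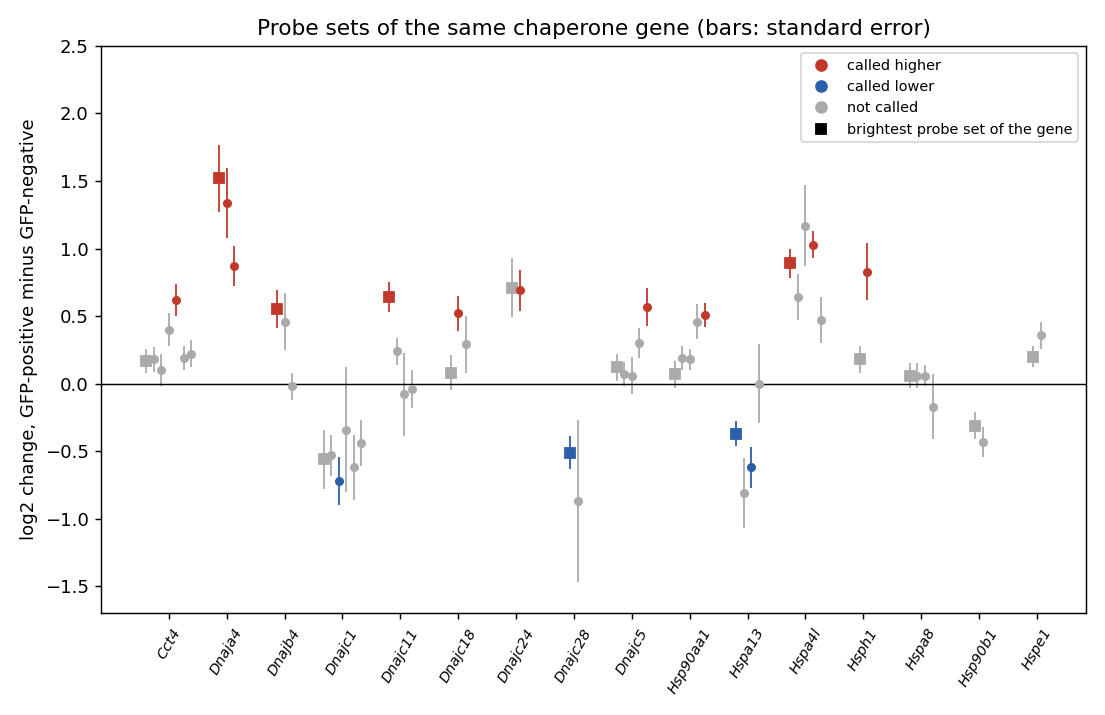
Log2 change with standard error of each probe set of the chaperone genes that have several and at least 1 called, and of Hspa8, Hsp90b1 and Hspe1, coloured by call, with the brightest probe set of a gene as a square. The 3 probe sets of Dnaja4 lie between 0.87 and 1.52, whereas those of Dnajc11 range from -0.08 to 0.64. The Dnajc11 values below 0 come from probe sets with signal under the array medians.

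By compartment, the mitochondrial list had 1 of 8 genes higher (Dnajc11) and 1 lower (Dnajc28), against 8.15% and 9.92% of all genes. The median change of that list was 0.20, against 0.11 over all genes. The endoplasmic reticulum list had 1 of 12 higher (Dnajc25) and 1 lower (Hspa13), 8.33% each, against the same 8.15% and 9.92%. Its median was 0.01. Over the alternative settings it ran from -0.04 (without GFP-negative 1) to 0.09 (probe set of highest variance), with -0.02 for quantile normalization repeated. Outside the chosen members, Dnajb9, the stress-induced J-protein of that compartment, fell by 0.94 ± 0.11 (SE, limma adjusted p = 0.00357), and Hspa5, its Hsp70, differed by -0.19 ± 0.09 (0.188). Of 12 heat-inducible members 1 rose (Hspa4l, 8.33%, near the 8.15% of all genes) and 0 fell, with a median of 0.17. That count depends on the probe set choice. With the mean of all probe sets of a gene 6 of the 12 were higher and 0 lower. Over all genes that setting called 2372 higher, against 1482 by the brightest probe set. The other settings that gave a value called 0 to 3 of the 12 higher. The list also holds the constitutive Hspa8. Beside the heat-inducible list, the immediate early genes, which also respond to handling, had 0 of 13 higher and 3 lower (23.1%, against 9.92%).

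Of 54 co-chaperones and folding factors outside these families, 7 were higher (13%, against 8.15% of all genes) and 2 lower (3.7%, against 9.92%), with a median of 0.15, against 0.11. In either direction 16.7% were called, near the 18.1% of all genes. Bag2, which blocks ubiquitination by the Hsp70 partner CHIP, read 9.43, 8.98 and 8.96 against 9.99, 10.29 and 10.04, a rise of 0.98 ± 0.16 (SE, limma adjusted p = 0.0119). Fkbp5, the Hsp90 partner that damps glucocorticoid receptor signalling, read 11.18, 11.07 and 11.08 against 10.52, 10.02 and 10.14, and fell by 0.89 ± 0.15 (limma adjusted p = 0.012). Both calls held with each array left out, and without both arrays of high immunoglobulin signal Fkbp5 stayed called (0.0315) while Bag2 did not (0.0871). Unc45a, which helps myosin fold, rose by 0.75 ± 0.17. Pfdn1, a subunit of the prefoldin that hands actin and tubulin to the Cct ring, rose by 0.51 ± 0.10. Clpb, a mitochondrial disaggregase, rose by 0.51 ± 0.12, and Ttc4, a partner of Hsp70 and Hsp90, by 0.50 ± 0.12. With 1 array left out Clpb and Ttc4 lost their calls in all 6 fits, Pfdn1 kept it only without GFP-negative 1 and Unc45a only without GFP-positive 2. Clpx, Tbce (both higher) and Hscb (lower) were the remaining calls.

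**Figure D4:**
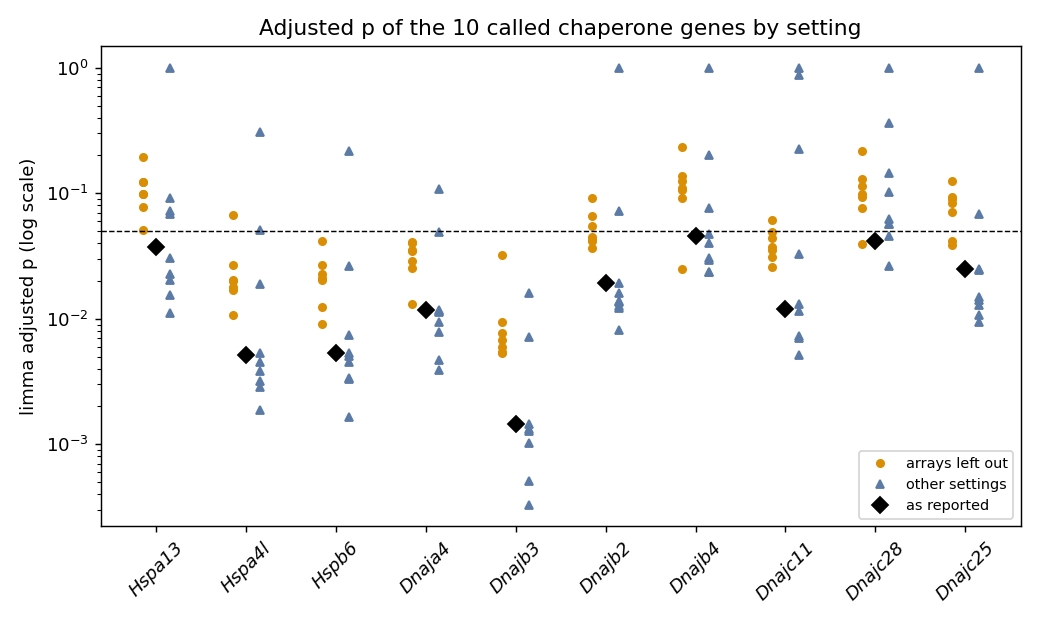
Adjusted p from limma (log axis) of the 10 called chaperone genes in the fit reported, with 1 array left out, and under the other settings; the dashed line is the threshold of 0.05. With 1 array left out, Dnajb3, Dnaja4, Hspb6, Hspa4l and Dnajc11 stay under the line in all 6 fits and Hspa13 in 0 of 6.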

How the data were processed

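Gene expression was measured on 6 Affymetrix arrays, 3 of GFP-negative and 3 of GFP-positive cells. The authors deposited 1 linear intensity for each probe set and array, computed with RMA per the submitters' processing notes; its version and settings are not stated in the sources. The values were taken to log2 without further normalization, and 64 array controls were left out. Gene names came from the platform annotation, and all 77 members matched RefSeq (GRCm38.p6) by gene ID and symbol. The test was limma's (version 3.58.1, R 4.3.3), fitted by lmFit and eBayes with no covariate, with Benjamini-Hochberg adjustment over 45037 probe sets and a threshold of 0.05; the fit was tested on simulated data. The number of arrays, 3 in each group, limits the precision, and no detection calls were used.

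The members and lists were chosen with earlier results of these data known. In each family up to 4 called members of largest change, or the brightest where none was called, are given in full; of co-chaperones, up to 6. Array values of Hspa8, Hspa1b, Hsp90b1, Hspd1, Dnajc6 and Hspb1 were added after values were seen. Alternatives covered normalization, variance prior, array weights, a dim filter, a fold floor, the probe set of a gene, the membership rule, a replicate block and arrays left out.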

Additional observations from a re-analysis of the deposited data

How the results depend on the processing

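In the 6 fits with 1 array left out, 5 to 8 chaperone genes were called higher and 0 to 1 lower, against 8 and 2 with all arrays. Over probe sets these were 8 to 15 higher and 0 to 1 lower, over co-chaperones 1 to 5 and 1 to 2, over all genes 614 to 1134 and 1215 to 1604, and the median chaperone change was 0.12 to 0.18. Without both arrays of high immunoglobulin signal the counts were 3 and 0 chaperone genes, 4 and 0 probe sets, 0 and 2 co-chaperones, and 379 and 929 of all genes, with a median of 0.12; fewer arrays were tested. With array medians subtracted they were 16 and 0 chaperone genes, 36 and 1 probe sets, and 2657 higher of all genes. The median was then 0.22, against 0.19 over all genes, and over all probe sets 61.5% of calls were higher, against 45.3%. With a fold floor of 1.5 they were 1 and 0 chaperone genes, 1 and 0 probe sets, 0 and 0 co-chaperones, and 203 and 553 of all genes. An intensity trend with robust priors gave 14 chaperone genes and 30 probe sets higher and 4 co-chaperones lower. The mean of a gene's probe sets gave 18 and 4 chaperone genes and 2372 of all genes higher. The probe set of highest variance gave 0 chaperones and 4 co-chaperones lower, and turned Dnajc11 to -0.08 through a probe set under the array medians. Array weights gave 30 probe sets higher, and repeated quantile normalization 30 higher and 2 lower, with 1 chaperone gene lower. The cause of these shifts was not tested.

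Same-numbered arrays deviated together only weakly (r = 0.02306, 0.05474 and 0.01907), so the numbers were not taken as pairs. With the replicate block 7 chaperone genes were higher and 0 lower: Dnajb2 (adjusted p = 0.072), Dnajc25 (0.0688), Hspa13 (0.0717) and Dnajc28 (0.103) lost their calls, Dnajc24 gained one, and 6 calls were shared; 1 probe set was lower and 3 co-chaperones were higher. A filter keeping the brighter probe sets left out Dnajb3, and counting symbols with no digit left 8 and 2 calls. Over the alternatives that gave a value, the median chaperone change stayed above 0, as did the median over all genes (0.04 to 0.19).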
